A study of Saccharomyces cerevisiae with 8 samples.

Results

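The 39 genes described here are the nuclear genes of the yeast respiratory chain and the mitochondrial ATP synthase, found by gene symbol among the 5449 Saccharomyces cerevisiae genes on the array. They comprise 3 NADH dehydrogenases, 4 genes of complex II, 9 of complex III, 2 of cytochrome c, 9 of complex IV and 12 of the ATP synthase. Each had 1 probe set, and all 39 were among the 5439 genes tested. Their messenger RNA was read on 8 Affymetrix arrays, 2 for each of 4 groups, and the titles call the replicates biological. Strain W303 served as wild type. Strain 6EA1, the double deletion, has the W303 background and lacks RPL12A and RPL12B, which encode identical copies of a ribosomal protein at the base of the stalk. The remaining groups were 6EA1 bearing a high copy plasmid with RPL12A or with RPL12B, so that both chromosomal genes were absent in 3 of the 4 groups. Copy number on the plasmids was not that of the chromosome, and a strain with an empty plasmid was not analysed here. All cultures were in early log phase at 30 °C in defined medium with 2% glucose, harvested at an A600 of 0.5 to 0.6.

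The respiratory chain of the inner mitochondrial membrane passes electrons from NADH and succinate through coenzyme Q, the cytochrome bc1 complex (complex III) and cytochrome c to cytochrome c oxidase (complex IV), and the ATP synthase uses the resulting proton gradient. Budding yeast has no proton-pumping complex I, and single-subunit NADH dehydrogenases on the matrix side and on the outer side of the membrane take its place. In glucose medium this yeast mainly ferments, and many of these genes are known targets of glucose repression and of the Hap2/3/4/5 complex and the heme-responsive factor Hap1.

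The signals were linear intensities, scaled so that the mean of each array after trimming 2% at each end was 500.2. The deleted genes followed the labels. RPL12A had signals of 5321 and 5269 in wild type cells and 28.8 and 6.88 in the double deletion, and RPL12B 6537 and 7039.7 against 17.3 and 1.71. With a plasmid, the gene it carried read 5469 to 6446, and the other one 8.18 to 48.5. The arrays differed in ways that touch the 39 genes. The median signal of S. cerevisiae genes was 602 and 613 in the wild type and 697 and 699 in the double deletion, while the 95th percentile of the genes tested was lower in the double deletion, at 3674 and 3794 against 4470 and 4503. A control probe set for 25S ribosomal RNA read 148 to 312 on 3 arrays (replicate 2 of the wild type and of both plasmid groups) and 2476 to 5720 on the other 5. The part of either pattern in the results was not tested.

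In the double deletion, 1 of the 39 genes passed the test as higher than wild type (ATP14) and 7 as lower (ATP16, ATP3, ATP20, ATP2, COX5A, QCR7 and ATP1) on the deposited scale, and 6 of the 7, all but ATP16, turned above 0 when the arrays were centred on hybridisation controls. Of these 8 genes, 6 encode subunits of the ATP synthase. The test was limma across all genes, 2-sided, with Benjamini-Hochberg adjustment and a threshold of 0.05. Among all genes tested, 20.4% were called higher, 12.2% lower and 32.5% either way, against 2.56%, 17.9% and 20.5% of the respiratory genes. The 2 arrays of each group did not overlap for 9 genes that were higher and 20 that were lower in the double deletion, against 47.3% and 28.2% of all genes. The median log2 difference of the 39 genes was -0.09, against 0.14 over all genes tested. Many of the 39 genes were bright, with a median signal of 3109 and 3000 on the wild type arrays. Not all were, as the wild type means ran from 38.1 (NDE2) to 4764 (ATP1). The 90th percentile of the genes tested was 2878 and 2884 there, and lower in the double deletion, at 2581 and 2594. All 15 genes above 0 in the double deletion had wild type means under that percentile, the highest being QCR6 at 2814. Every gene with a mean above it was below 0, as were the dimmer SDH1, COX5B and ATP18. The median over all genes may not stand for the brighter of the 39 genes, and this was not tested. Most differences were small: 24 of the 39 were under 0.25 in size on the log2 scale, and 1 (CYC7) reached a factor of 2. With 2 arrays per group, an exact permutation test of a single gene cannot give a p below 0.333. Each call therefore rests on a spread taken as equal in the 4 groups (4 residual degrees of freedom) and partly borrowed across genes (3.23 prior degrees of freedom). Leaving out replicate 1 of the wild type, or replicate 2 of the wild type, left 0 of the 39 genes called in either direction, while 8.79% and 4.71% of all genes were called. Leaving out replicate 1 or replicate 2 of the double deletion left 2 called lower and 0 or 1 higher, with 4.38% and 20.8% of all genes called. In these fits the lone array is assumed to vary like the other groups. A fit to the 5 arrays with the high 25S signal compares the arrays left without replicate 2 of the wild type. Its log2 differences are the same as in that fit, so it is not a further check on them. It keeps 1 wild type array, and its 1 residual degree of freedom comes from the double deletion. Its log2 differences for the 8 genes ran from -0.52 (ATP16) to 0.47 (ATP14), each of the same sign as with all arrays.

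**Figure D1:**
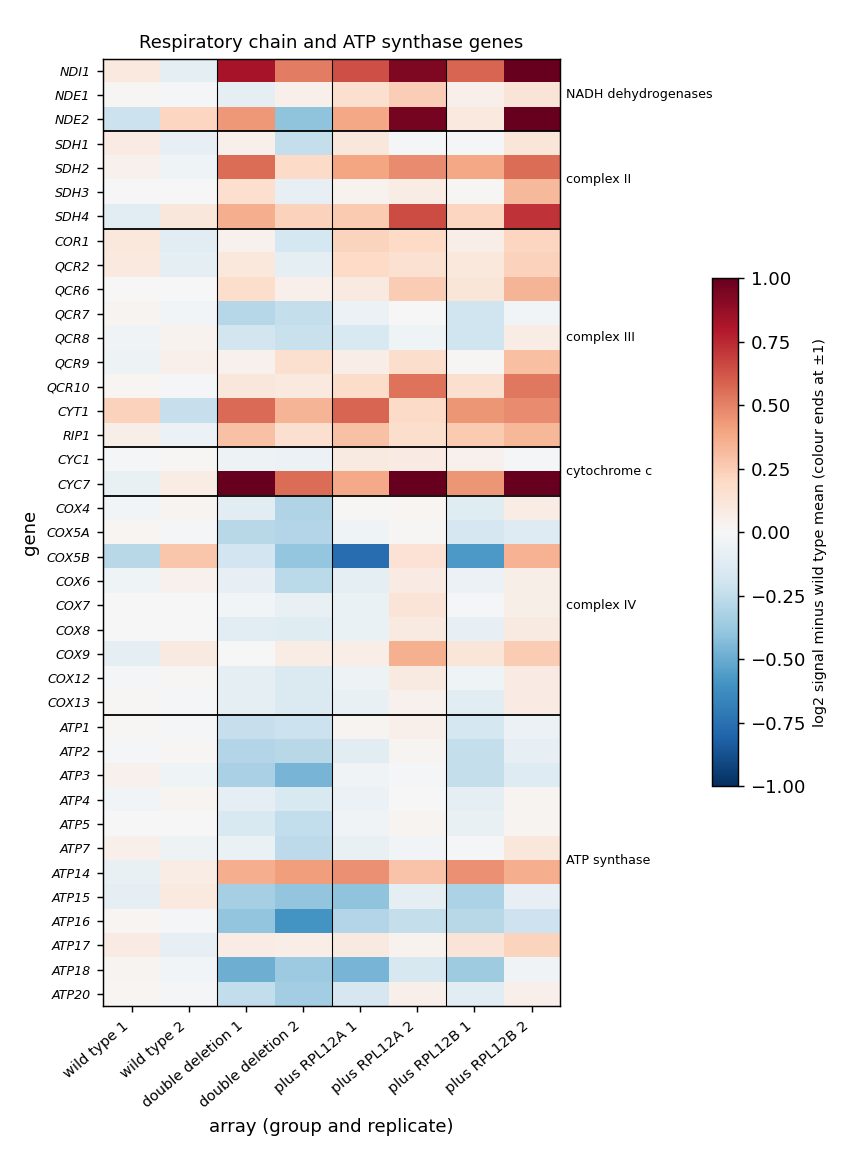
Log2 signal of the 39 genes (rows, grouped by complex) on each of the 8 arrays (columns), minus the mean of the wild type arrays, on the deposited scale; the colours end at a log2 difference of 1 either way. ATP14 is above the wild type mean and ATP16 below it on every array of the other groups, and CYC7, NDI1 and NDE2 differ between replicates of a group.

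The signs of most of these differences depended on how the arrays were scaled. The median of all genes tested, double deletion minus wild type, was 0.14 as deposited, -0.06 after centring each array on its S. cerevisiae median, -0.00 after quantile normalization and 0.54 after centring on 18 hybridisation control probe sets. The median of the respiratory genes on the same 4 scales was -0.09, -0.30, 0.08 and 0.30, which is below the median of all genes on each but quantile normalization. Median centring called 0 of the 39 genes higher and 19 lower. Quantile normalization called 2 higher (ATP14 and RIP1) and 0 lower, and control centring called 22 higher and 0 lower. Among all genes those calls were, in the same order, 10.1% higher and 22.2% lower, 7.23% and 7.85%, and 51.0% and 1.2%. On the deposited scale with the 25S split as a block, 4 were called higher and 6 lower, against 25.7% and 14.4% of all genes. No respiratory gene was called on all 4 scales. ATP14 was called higher on 3 of them, all but median centring. The direction was the same on all 4 scales for 9 of the 39 genes, of which NDI1, SDH2, SDH4, CYT1, RIP1, CYC7 and ATP14 were above the wild type and ATP16 and ATP18 below it. The other 30 turned on at least 1 scale.

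**Figure D2:**
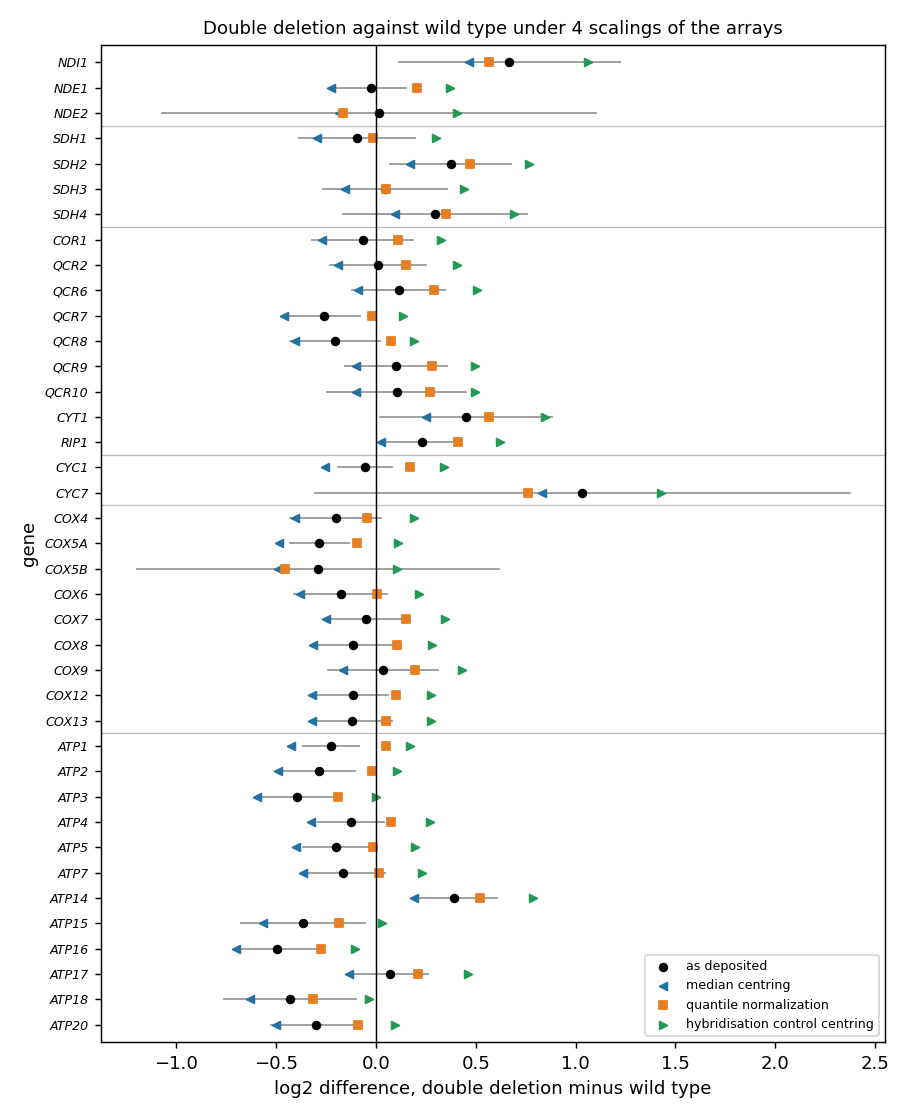
Log2 difference between double deletion and wild type for each of the 39 genes under 4 scalings of the arrays (black circles, as deposited, with 95% intervals; triangles pointing left, median centring; squares, quantile normalization; triangles pointing right, hybridisation control centring). The symbols of 30 genes lie on both sides of 0, and those of ATP14 (0.19 to 0.79) and ATP16 (-0.70 to -0.10) stay on opposite sides.

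The 3 NADH dehydrogenases differed among themselves, and none was called. NDI1 (YML120C) encodes the internal enzyme, which oxidises NADH of the matrix. Its signal was 739 and 649 in wild type cells, 1227 and 986 in the double deletion, 1082 and 1323 with the RPL12A plasmid and 1034 and 1662 with the RPL12B plasmid. All 6 arrays of the deletion background were above both wild type arrays. The log2 difference of the double deletion from the wild type was 0.67 (SE 0.24, 95% interval 0.11 to 1.22), with an adjusted p of 0.0660 from limma. Median centring gave 0.47 (adjusted p = 0.191), quantile normalization 0.57 (adjusted p = 0.161) and control centring 1.06 (adjusted p = 0.0058). NDE1 (YMR145C), for the main external NADH dehydrogenase, read 3657 and 3612 in wild type cells, 3389.6 and 3761 in the double deletion, 4064 and 4307 with RPL12A and 3755 and 3977 with RPL12B. The wild type lay inside the range of the double deletion, with a log2 difference of -0.03 (SE 0.074, adjusted p = 0.810). NDE2 (YDL085W), for the second external enzyme, was dim, at 32.5 and 43.7, 50.8 and 28.5, 49.3 and 73.0, and 40.4 and 89.2 in the same order of groups. Its replicates differed by 0.43 to 1.14 in size on the log2 scale, and the log2 difference of the double deletion from the wild type was 0.01 (SE 0.46, 95% interval -1.07 to 1.10).

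Complex II, succinate dehydrogenase, had 0 of 4 genes called and a median log2 difference of 0.17 from the wild type in the double deletion, which was -0.03 with median centring. SDH2 (YLL041C), for the iron-sulfur subunit, gave signals of 1769 and 1675 in the wild type and 2529 and 1969 in the double deletion. With the plasmids it read 2257 and 2393 (RPL12A) and 2252 and 2538 (RPL12B). Its groups did not overlap with the wild type, and the log2 difference of 0.37 (SE 0.13) in the double deletion missed the threshold (adjusted p = 0.0624). SDH4, for a membrane anchor subunit, differed by 0.30 (adjusted p = 0.274), SDH3, for the other anchor, by 0.05, and SDH1, for the flavoprotein, by -0.09. On a single array the ratio of SDH2 to SDH1 does not depend on centring. Relative to its mean in the wild type it was 0.50 and 0.43 higher on the log2 scale in the double deletion, 0.28 and 0.49 with RPL12A and 0.41 and 0.44 with RPL12B, a pair picked after its values were seen.

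Of the 9 genes of complex III, QCR7 was called lower in the double deletion and none higher. QCR7 (YDR529C), for a small subunit on the matrix side, read 4014 and 3883 in wild type cells, 3243 and 3354 in the double deletion, 3791 and 3968 with RPL12A and 3430.0 and 3869 with RPL12B. The double deletion lay below all the other groups. Against the wild type it fell by 0.26 on the log2 scale (SE 0.076, adjusted p = 0.0374), and it turned to 0.13 with control centring. CYT1 (YOR065W), for cytochrome c1, showed the largest difference of the complex without a call. Its signals were 2116 and 1535 in wild type cells, 2668 and 2277 in the double deletion, 2695 and 2057 with RPL12A and 2448 and 2494 with RPL12B. The wild type replicates of CYT1 differed widely, and the log2 difference of 0.45 (SE 0.18) had an adjusted p of 0.0983. RIP1, for the Rieske iron-sulfur protein, differed by 0.23 (adjusted p = 0.0740), and was called with quantile normalization (0.41, adjusted p = 0.0237) and control centring (0.62, adjusted p = 0.0028), while median centring left 0.03 (adjusted p = 0.838). The array also carries 3 control probe sets along RIP1, towards its 3′ end, middle and 5′ end. Their log2 differences in the double deletion were 0.36, 0.23 and 0.21, each of the same sign as that of the gene's own probe set. They read the same messenger RNA on the same arrays, on the deposited scale alone, so they are not separate evidence. The remaining 6 genes lay between -0.20 (QCR8) and 0.11 (QCR6).

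Yeast makes cytochrome c from a major aerobic gene, CYC1, and a minor one, CYC7, known to be favoured at low oxygen. CYC1 (YJR048W) stayed in a narrow range, with 3564 and 3634 in wild type cells, 3474 and 3464 in the double deletion, 3822 and 3800.4 with RPL12A and 3703 and 3572 with RPL12B. The double deletion lay below the wild type by a log2 difference of -0.05 (SE 0.058, 95% interval -0.19 to 0.08, adjusted p = 0.504). It turned to 0.17 with quantile normalization and 0.34 with control centring, and was -0.25 with median centring. CYC7 (YEL039C) read 314 and 349 in wild type cells, 940.4 and 487 in the double deletion, 431 and 894 with RPL12A and 450.4 and 1349 with RPL12B. Every array of the deletion background was above both wild type arrays, but the replicates of these groups stood far apart. The log2 difference of CYC7 was 1.03 (SE 0.57, 95% interval -0.31 to 2.37, adjusted p = 0.198) in the double deletion and 1.24 (adjusted p = 0.187) with RPL12B, both against the wild type. The first of these was 0.56 without replicate 1 of the double deletion and 1.51 without replicate 2.

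Among the 9 genes of complex IV, COX5A was called lower in the double deletion and none higher. COX5A and COX5B encode alternative forms of the same subunit, of which COX5A is known as the aerobic and COX5B as the hypoxic form. COX5A (YNL052W) had signals of 3525 and 3413 in wild type cells, 2864 and 2838 in the double deletion, 3364 and 3491 with RPL12A and 3088 and 3178 with RPL12B. The double deletion was below every other array, at a log2 difference of -0.28 (SE 0.062, adjusted p = 0.0166). It turned to 0.11 with control centring. COX5B (YIL111W) read 647 and 947, 683 and 599, 462 and 867, and 524 and 995 in the same order of groups. Its groups overlapped throughout, with a log2 difference of -0.29 (SE 0.39, 95% interval -1.20 to 0.62, adjusted p = 0.588) in the double deletion. The other 7 genes of complex IV were between -0.20 (COX4) and 0.04 (COX9) in that comparison. The median over the complex was -0.12 as deposited and turned to 0.05 with quantile normalization and 0.28 with control centring.

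**Figure D3:**
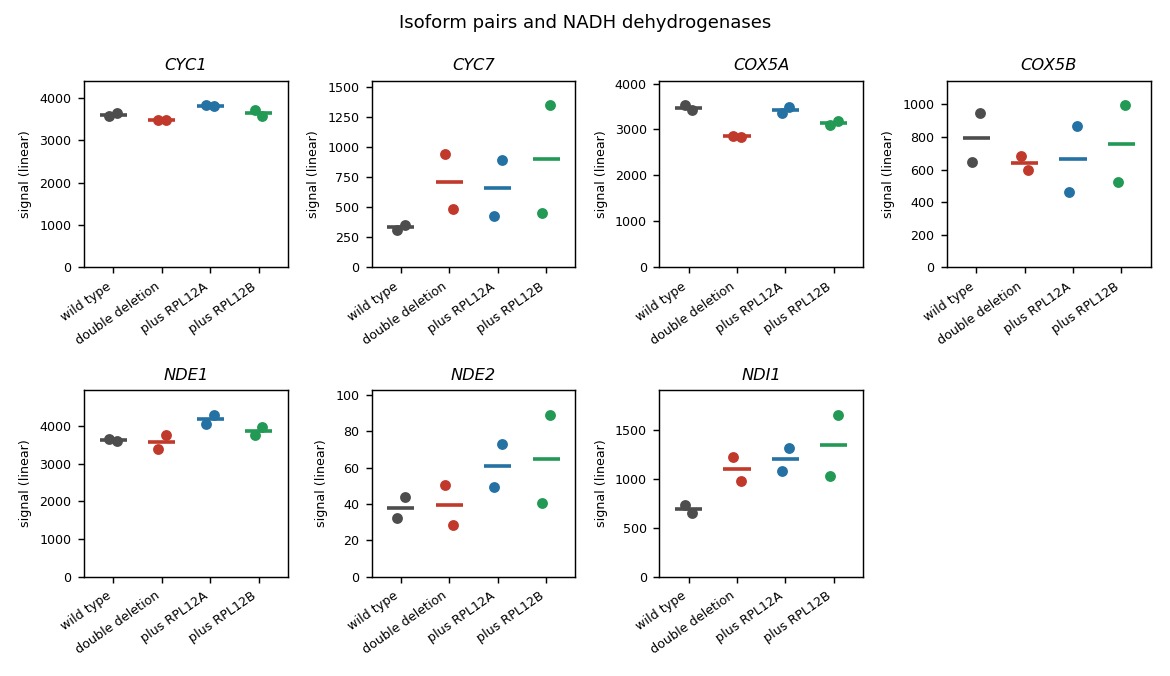
Linear signal of the cytochrome c genes CYC1 and CYC7, the complex IV isoforms COX5A and COX5B and the NADH dehydrogenases NDE1, NDE2 and NDI1, with a point per array and a bar at the mean of each group of 2; each panel has its own axis from 0. The double deletion is the lowest group for COX5A, at 2864 and 2838, a difference from the wild type that turns with control centring, and CYC7 spans 450.4 to 1349 in the group with the RPL12B plasmid.

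On the deposited scale the ATP synthase held most of the calls. In the double deletion 5 of its 12 genes were lower than wild type and 1 higher, against 12.2% and 20.4% of all genes. Median centring called 10 lower and 0 higher, quantile normalization 0 and 1, and control centring 0 and 3, in the same order. Over all genes the shares were 22.2% and 10.1%, 7.85% and 7.23%, and 1.2% and 51.0%. The enzyme consists of the catalytic F1 head (ATP1, ATP2, ATP3, ATP15 and ATP16 for alpha, beta, gamma, epsilon and delta), the stator, and the membrane part F0. For the 5 F1 genes the median log2 difference was -0.36, with 4 called lower and each of the 5 lower at an unadjusted p under 0.05, as were 17.1% of all genes. That median was -0.57 with median centring and -0.18 with quantile normalization, and it turned to 0.03 with control centring. ATP16 (YDL004W) read 3963 and 3842 in wild type cells, 2963 and 2579 in the double deletion, 3192 and 3299.5 with RPL12A and 3212 and 3373 with RPL12B. All 6 arrays of the deletion background were below the wild type, and the double deletion was the lowest. Its log2 difference of -0.50 (SE 0.082, adjusted p = 0.0082) was the only one among the 39 genes called at a threshold of 0.01. Without replicate 2 of the wild type its adjusted p was 0.0547.

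ATP3 (YBR039W) had signals of 3752 and 3546 in wild type cells, 2908 and 2648 in the double deletion, 3567 and 3597 with RPL12A and 3088 and 3330.0 with RPL12B. Its log2 difference in the double deletion was -0.39 (SE 0.077, adjusted p = 0.0119). ATP2 (YJR121W) read 4575 and 4636 in wild type cells, 3755 and 3797 in the double deletion, 4248 and 4683 with RPL12A and 3894 and 4349 with RPL12B, and fell by 0.29 on the log2 scale (SE 0.076, adjusted p = 0.0290). For both genes the double deletion lay below every other array. ATP1 (YBL099W) read 4814 and 4714, 4059 and 4102, 4866 and 4936, and 4222 and 4572 in the same order of groups, and fell by 0.22 (SE 0.060, adjusted p = 0.0290). With the RPL12A plasmid ATP1 was above both wild type arrays, and with the RPL12B plasmid it was below both. ATP15 (YPL271W) missed the threshold at -0.36 (SE 0.13, adjusted p = 0.0704). The signs of ATP1, ATP2 and ATP3 turned with control centring, to 0.17, 0.11 and 0.00014, and that of ATP1 also with quantile normalization, to 0.05.

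Outside F1, genes of the same enzyme differed in direction. ATP14 (YLR295C), for subunit h of the stator, read 2014 and 2232 in wild type cells, 2722 and 2839.9 in the double deletion, 2913 and 2581 with RPL12A and 2913 and 2726 with RPL12B. All 6 arrays of the deletion background were above the wild type. The log2 difference was 0.39 (SE 0.093, adjusted p = 0.0203) in the double deletion, and relative to the median of all genes it was 0.25. Without replicate 1 of the wild type its adjusted p was 0.113. ATP20 (YPR020W), for subunit g, read 3714 and 3622, 3085 and 2876, 3267 and 3794, and 3401 and 3808 in the same order of groups. It fell by 0.30 in the double deletion (SE 0.095, adjusted p = 0.0482), below all other arrays, and turned to 0.09 with control centring. ATP18, for subunit i/j, was at -0.43 with an adjusted p of 0.0530. ATP4, ATP5, ATP7 and ATP17 lay between -0.20 (ATP5) and 0.07 (ATP17).

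The gap between ATP14 and ATP16 did not rest on the scale of an array, since both were read on the same one. Relative to its wild type mean, the log2 ratio of ATP14 to ATP16 was 0.76 and 1.02 on the arrays of the double deletion, 0.75 and 0.53 with RPL12A and 0.74 and 0.57 with RPL12B, against -0.10 and 0.10 in the wild type. With quantile normalization, which changes the shape of each array, the mean in the double deletion was 0.80. Every array of the deletion background was above both wild type arrays on either scale. The pair was picked as the extremes of the complex, so the ratio is a description without a test, and it shows unequal change rather than which gene moved. The ratio of RIP1 to QCR7, likewise picked after its values were seen, had a mean of 0.49 in the double deletion, or 0.43 with quantile normalization.

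**Figure D4:**
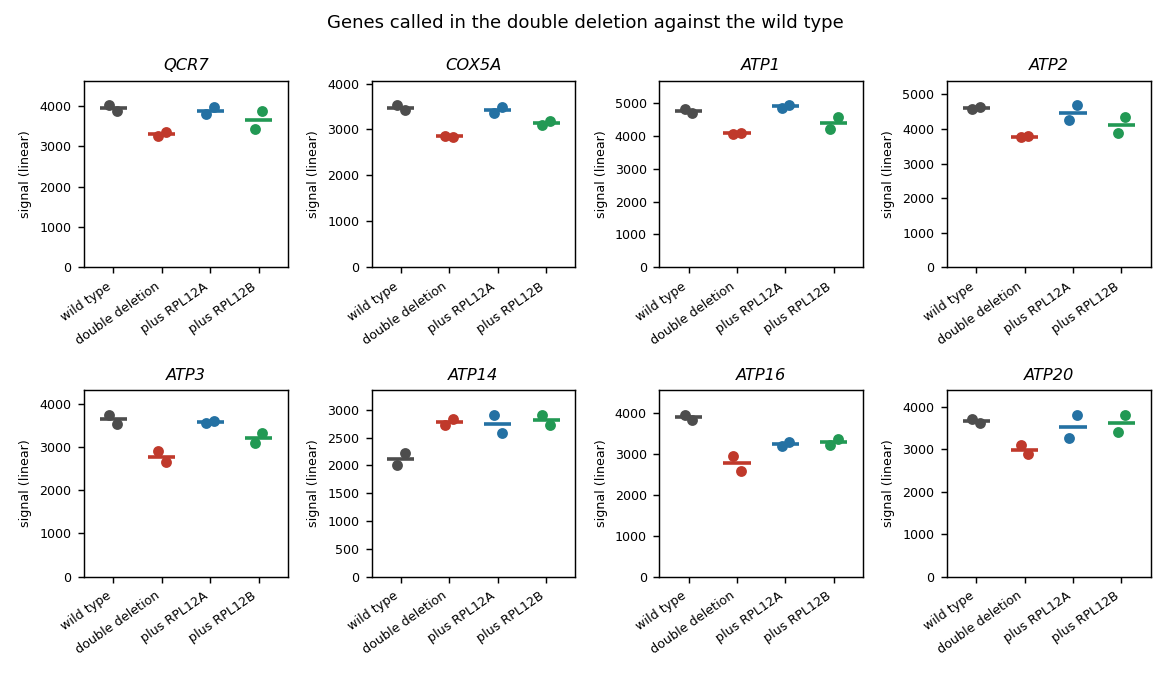
Linear signal of the 8 genes called between double deletion and wild type, with a point per array and a bar at the mean of each group of 2; each panel has its own axis from 0. The double deletion lies below the wild type for 7 genes, of which all but ATP16 turn with control centring, and above it for ATP14, where all 4 arrays with a plasmid (2581 to 2913) also exceed the wild type (2014 and 2232).

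Neither plasmid gave a call among the 39 genes when compared with the double deletion. With the RPL12A plasmid limma called 0 of 39, and the share called over all genes was 0.221%. At an unadjusted p under 0.05, 11 were higher and 0 lower, against 7.1% and 8.57% of all genes. With the RPL12B plasmid it also called 0 of 39, and 0.11% of all genes. Unadjusted, 5 were higher and 0 lower, against 3.33% and 3.88% of all genes. The median log2 difference of the respiratory genes from the double deletion was 0.14 with either plasmid, against -0.09 (RPL12A) and -0.06 (RPL12B) over all genes tested. The log2 difference was above 0 for 34 of the 39 genes with RPL12A (36.7% of all genes) and for 39 of 39 with RPL12B (39.5% of all genes). These counts fell to 24 and 31 with quantile normalization, where the medians were 0.06 and 0.07. With control centring the counts fell to 17 and 16, and the medians turned to -0.01 and -0.02. Many of the 39 genes, though not all, are bright. The 90th percentile of the genes tested was 2581 and 2594 in the double deletion. It was also higher with RPL12A (2737 and 2761) and with RPL12B (2704 and 2769). These comparisons share the double deletion arrays with each other and with the comparison above.

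The genes called lower in the double deletion had values nearer to the wild type with the plasmids on the deposited scale, without a call against either side. They were picked by low values on the double deletion arrays, and the differences below are measured from those same arrays. Some move towards the wild type would be seen from that choice alone, so these values are a description and not a test of recovery. ATP3 was 0.37 above the double deletion with RPL12A (SE 0.077, adjusted p = 0.197, the lowest of the 39 genes) and 0.21 with RPL12B (adjusted p = 0.642). ATP1 was 0.26 above it with RPL12A and 0.11 with RPL12B, COX5A 0.27 and 0.14, and QCR7 0.23 and 0.14. ATP16 was 0.23 and 0.25 above the double deletion but remained below the wild type, by a log2 difference of -0.27 with RPL12A (adjusted p = 0.107) and -0.25 with RPL12B (adjusted p = 0.0963). With control centring ATP1, ATP2 and ATP3 lay further from the wild type with RPL12A (0.29, 0.20 and 0.22) than in the double deletion (0.17, 0.11 and 0.00014). On that scale ATP1, ATP2, COX5A and QCR7 were also below the double deletion with RPL12B, by differences of -0.06 to -0.02. ATP14 differed from the double deletion by -0.02 with RPL12A and by 0.02 with RPL12B, with 95% intervals of -0.24 to 0.20 and -0.20 to 0.24.

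Against the wild type, 0 of the 39 genes were called with the RPL12A plasmid, where 3.97% of all genes were called (2.22% higher, 1.75% lower), and at an unadjusted p under 0.05 6 were higher and 1 lower, against 14.3% and 10.8% of all genes. With the RPL12B plasmid 1 was called higher, ATP14, and 0 lower, with 9.49% of all genes called (5.59% higher, 3.9% lower). ATP14 was 0.41 above the wild type there (SE 0.093, adjusted p = 0.0408) and 0.37 with RPL12A (adjusted p = 0.0722). The call with RPL12B was lost in each of the 8 fits that left out 1 array, with an adjusted p of up to 0.193. NDI1 was 0.92 above the wild type with RPL12B (SE 0.24, adjusted p = 0.0536) and 0.79 with RPL12A (adjusted p = 0.0999), and SDH2 0.47 (adjusted p = 0.0626) and 0.43 (adjusted p = 0.0999). The median of the 39 genes was 0.04 with RPL12A and 0.03 with RPL12B, against 0.04 and 0.07 over all genes. Both medians turned below 0 with median centring, to -0.04 and -0.09. Control centring called 13 and 12 of the 39 genes higher, against 13.3% and 16.8% of all genes.

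Between the plasmids, 0 of the 39 genes were called by limma, and 0.0184% of all genes were. At an unadjusted p under 0.05, 1 was lower with RPL12B (ATP1, by a log2 difference of -0.16), as were 1.21% of all genes. The differences ran from -0.16 to 0.33, and for 34 of the 39 genes the 95% interval lay within 0.5 of 0. The widest intervals were those of CYC7, NDE2 and COX5B. All of these were higher in replicate 2 than in replicate 1 with either plasmid. The fit did not pair replicates, so it counts such a shared shift as spread.

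**Figure D5:**
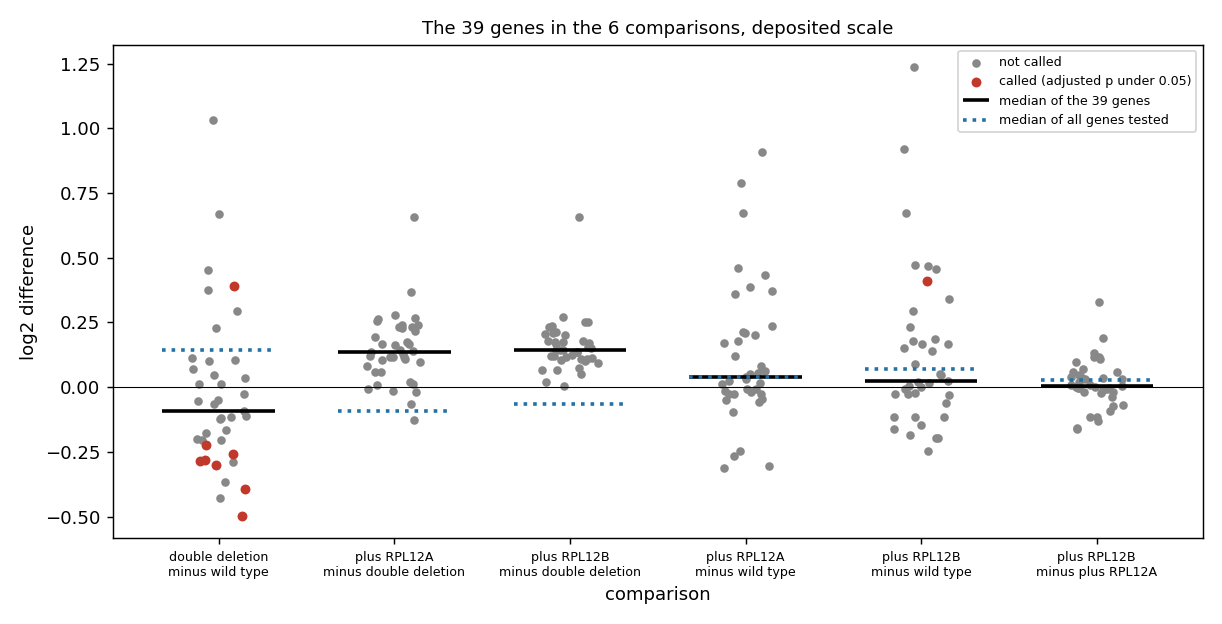
Log2 difference of each of the 39 genes (points, red where called) in the 6 comparisons between groups on the deposited scale, with the median of the 39 genes (solid bar) and of all genes tested (dotted bar). The solid bar is at -0.09 for the double deletion minus wild type and at 0.14 for either plasmid against the double deletion, and these medians turn with control centring, to 0.30, -0.01 (RPL12A) and -0.02 (RPL12B).

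Replicates of a group differed in these genes by up to the size of the group differences. The median of replicate 2 minus replicate 1 over the 39 genes, on the log2 scale, was -0.01 in wild type cells, -0.10 in the double deletion, 0.08 with RPL12A and 0.15 with RPL12B, while over all genes tested it lay between -0.03 and -0.00. With RPL12B, 37 of the 39 genes were higher in replicate 2, which had the low 25S signal, and with RPL12A 31 were. The wild type, where replicate 2 also had the low signal, had 15 higher and 24 lower. CYC7 differed most between replicates, by -0.95 in the double deletion, 1.05 with RPL12A and 1.58 with RPL12B. NDE2 differed by -0.83, 0.57 and 1.14, and COX5B by 0.55 in wild type cells, 0.91 with RPL12A and 0.92 with RPL12B.

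Beyond the 39 genes, 131 genes of 13 lists around the pathway were tested, written by role. In the double deletion 21 of them were called above the wild type and 22 below it, 32.8% in all against 32.5% of all genes. The medians below are log2 differences of the double deletion from the wild type and stand against 0.14 over all genes tested. Assembly factors for cytochrome oxidase numbered 3 higher and 4 lower of 28, with a median of -0.17. Of these, COX19 (log2 difference 1.45, SE 0.14, adjusted p = 0.0022) and COX17 (-1.04, SE 0.17, adjusted p = 0.0074), both for proteins linked to copper delivery to the enzyme, went opposite ways and were called on all 4 scales. COX19 read 283 and 235 in the wild type and 736 and 679.7 in the double deletion, and COX17 1218 and 1324 against 651 and 583. Assembly factors for the ATP synthase numbered 3 higher and 2 lower of 11, with a median of 0.05. ATP10, for a factor of F0 assembly, rose by 1.36 (adjusted p = 0.0235), and ATP22, for a translational activator of ATP6, by 0.96 (SE 0.17). The 2 lower genes, named after their values were seen, were the F1 chaperones ATP11 (-0.74, adjusted p = 0.0071) and ATP12 (-0.38, adjusted p = 0.0311), and ATP12 turned to 0.01 with control centring.

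Among factors for the other complexes, SDH6, for an assembly factor of succinate dehydrogenase, was called higher at 1.11 (adjusted p = 0.0051) on all 4 scales, as 1 of 4 in its list (median -0.02). For complex III and cytochrome c, 1 of 13 was higher and 3 lower (median -0.14), with CBS2, a translational activator of cytochrome b, at 0.79 and MZM1, a factor for Rip1 insertion, at -0.67. Other subunits and inhibitors held 0 higher and 1 lower of 7, with a median of -0.01 (RCF2, for a supercomplex factor, was at -0.51). Heme synthesis held 1 higher and 3 lower of 8 (median -0.15), led by HEM12 (0.70) and HEM13 (-0.61), for consecutive enzymes of the pathway. Coenzyme Q synthesis held 2 higher and 1 lower of 10 (median 0.10), with COQ4 at 0.83 and the hydroxylase gene CAT5 at -0.62.

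Of 14 regulators of respiratory genes, 1 was called higher and 0 lower, with a median of 0.24. HAP5, for a DNA-binding subunit of the Hap2/3/4/5 complex, read 202 and 213 in the wild type and 328 and 303 in the double deletion, a log2 difference of 0.60 (SE 0.14, adjusted p = 0.0193). HAP2 differed by 0.55 (adjusted p = 0.0723), HAP3 by 0.34 (adjusted p = 0.135) and HAP1 by 0.35 (adjusted p = 0.219). HAP4, for the activating subunit, read 993 and 1659 in the wild type and 1084 and 1581 in the double deletion, with a log2 difference of 0.03 (SE 0.35, 95% interval -0.80 to 0.85). HAP3 turned with quantile normalization and HAP4 with median centring. ROX1, for the heme-dependent repressor of hypoxic genes, was at 0.85 (SE 0.44, adjusted p = 0.177). Its signals were 576 and 569.6 in wild type cells, 1135 and 933 in the double deletion, 1007 and 539.8 with RPL12A and 1097 and 434 with RPL12B. In each plasmid group the lower value was that of the array with the low 25S signal.

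Hypoxic genes, with a median of -0.23, held 0 higher and 2 lower of 8, TIR3 (-0.91, adjusted p = 0.0229) and ANB1 (-0.76, adjusted p = 0.0335). Glucose-repressed genes, with a median of 0.29, held 4 higher and 0 lower of 10, led by PCK1 of gluconeogenesis (1.18, adjusted p = 0.0091) and the lactate transporter gene JEN1 (0.99, adjusted p = 0.0242). Of the 10, 6 were above 0 (60.3% of all genes) and 4 below it, the lowest being ADH2 (-0.85, not called). ADH2 read 128 and 152 in the wild type and 90.2 and 66.5 in the double deletion. Other electron donors, with a median of 0.88, held 2 higher and 1 lower of 4, with GUT2, for the mitochondrial glycerol-3-phosphate dehydrogenase, at 1.20 (adjusted p = 0.0185) and MCR1, for an NADH-cytochrome b5 reductase, at 0.55 (adjusted p = 0.0351). Mitochondrial carriers and porin, with a median of 0.10, held 3 higher and 3 lower of 8, with the carnitine carrier gene CRC1 at 1.08 and the dicarboxylate carrier gene DIC1 at 0.72. Of 6 genes of the retrograde response (median 0.02), 0 were higher and 2 lower, IDH2 (-0.37) and ACO1 (-0.29), for enzymes of the tricarboxylic acid cycle, and both turned with control centring. Without a call, 3 of the 6 were above 0, the largest difference being that of CIT2 (0.61). CIT2 read 2945 and 2359 in the wild type and 3784 and 4290 in the double deletion.

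Across these lists 0 of 131 genes were called by limma with either plasmid against the double deletion, or between the plasmids. Against the wild type, 5 were higher and 1 lower with RPL12A, or 4.58% against 3.97% of all genes, and 9 higher and 7 lower with RPL12B, or 12.2% against 9.49%. COX19 was 1.03 and 1.21 above the wild type with RPL12A and RPL12B, SDH6 1.07 and 1.16, GUT2 1.35 and 1.50, and PCK1 1.02 and 1.20, each called. COX17 was lower than the wild type with both, at -0.88 and -0.80, and was called as well. ICL1, for isocitrate lyase of the glyoxylate cycle, was 0.92 and 1.17 above it. These calls rest on the same wild type arrays as those of the double deletion.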

How the data were processed

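The deposited table held linear intensities per probe set for 8 arrays; per the submitters' processing notes MAS5 made them (version not given in the sources used here). Of 10928 probe sets, 5498 stood for 5449 S. cerevisiae genes; 12 symbols were updated, and for 47 genes with several probe sets the brightest was used. Genes above the 95th percentile of the S. pombe probe sets on at least 2 arrays were tested (5439). The log2 of the deposited intensities was fitted with limma 3.58.1 in R 4.3.3 (a mean per group, eBayes with trend, 4 residual and 3.23 prior degrees of freedom), tested on simulated data. Figures used Python 3.11.15 with matplotlib 3.10.9.

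The 39 genes, the lists, the centring on hybridisation controls and the split by 25S signal were chosen with earlier results of these data known. Of 139 list genes 131 had a probe set; the mitochondrially encoded subunits were not analysed here. Values were given in full for every respiratory gene called, for the isoform pairs and for the largest difference per complex, and of the lists for HAP1 to HAP5, ROX1 and up to 2 called genes per comparison. CIT2 and ADH2 of the lists were added after their values were seen. P-values measure the spread between the titled biological replicates; the number of arrays limits precision.

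Alternatives were 3 other scalings, a pseudocount of 16, no filter, a stricter filter, the mean of probe sets, no trend, the 4 compared arrays alone, a block for replicate or 25S signal, a threshold of 0.01 and each array left out. The 5 arrays with high 25S signal were fitted alone after the data were seen. Replicate numbers were shared by the groups, but no label ties them to a batch.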

Additional observations from a re-analysis of the deposited data

How the results depend on the processing

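Of the counts of called genes, those between double deletion and wild type moved most. Where no share over all genes is given above for a fit, its count does not show whether the respiratory genes stand out. The 1 gene called higher became 0 with median centring, 22 with control centring and 2 with quantile normalization, 4 with the 25S block, 3 with the 4 compared arrays alone, 0 with the 5 arrays of high 25S signal, 0 at a threshold of 0.01, and 0 to 2 with single arrays left out. The 7 called lower became 19 with median centring, 0 with control centring, 0 with quantile normalization, 0 with the 5 arrays, 2 without trend, 1 at 0.01, and 0 to 8 with single arrays left out. For RPL12A against the wild type, 0 higher became 3 with the 25S block, 13 with control centring and 0 to 1 with single arrays left out. For RPL12B against the wild type, 1 higher became 5 with the 25S block, 12 with control centring, and 0 with median centring, with the 4 arrays or the 5 arrays, without trend and at 0.01, and 0 to 1 with single arrays left out, while 0 lower became 1 with median centring.

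Among the genes given in full in the double deletion, signs turned with control centring for QCR7 (0.13), COX5A (0.11), COX5B (0.10), ATP1 (0.17), ATP2 (0.11), ATP3 (0.00014), ATP20 (0.094), CYC1 (0.34) and NDE1 (0.37), with quantile normalization for ATP1 (0.050), CYC1 (0.17), NDE1 (0.21) and NDE2 (-0.16), and with median centring for NDE2 (-0.19). With single arrays left out, NDE1 ran from -0.10 to 0.05 and NDE2 from -0.40 to 0.43. The highest value of COX5B over all alternatives was 0.107.

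With the replicate block, the double deletion had 3 genes called higher and 10 lower, and 1 and 5 higher than the wild type with RPL12A and RPL12B. No share over all genes stands beside these counts, so they do not show whether the respiratory genes stand out. Deviations of like-numbered arrays correlated at 0.05 (double deletion and RPL12B) to 0.79 (RPL12A and RPL12B) over 5439 genes, and with 2 pairs per comparison the numbers were not taken as pairing. The cause of these changes was not tested. The pseudocount, the filters and the mean of probe sets left these counts within 1.5 times. On all arrays each respiratory gene exceeded the background of 7.42 to 8.72, and NDE2 came nearest to it at 28.5 to 89.2.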
